A study of Arabidopsis thaliana with 60 samples.

Results

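The first hour of auxin was followed in roots of an Arabidopsis thaliana line that carries pGATA23::shy2-2-GR. Of 60 libraries in the series, 6 were compared, 3 from seedlings sampled at 0 h and 3 from seedlings sampled after 1 h on auxin, all in the solvent control DMSO. The groups were chosen by the sample titles alone. The fusion gene holds shy2-2, a stabilised form of the auxin repressor IAA3, joined to the hormone-binding part of the glucocorticoid receptor (GR) and driven by the promoter of GATA23, a gene of lateral root founder cells. The fusion stays outside the nucleus unless dexamethasone (DEX) is given, and neither of the compared groups received DEX. The series holds a sister line, pGATA23::slr-1-GR, with stabilised IAA14 in place of IAA3, and names no line without a fusion gene.

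Seedlings of both groups grew in 16 h of light and 8 h of dark until 4 d after germination. NPA, an inhibitor of auxin efflux, was then given at 10 µM for 22 h, and NPA with DMSO for a further 2 h. The 1 h group was moved to 10 µM of the auxin indole-3-acetic acid (IAA) with DMSO, and the 0 h group was taken without time on IAA. Each sample pooled about 200 segments from the lower part of the root. The labels' harvest text names 0, 2, 4 and 6 h, and the 1 h samples rest on their titles and their time label. No samples were moved to plates without IAA, so time after transfer and IAA cannot be told apart in what follows.

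Auxin enters the nucleus-based pathway by binding TIR1/AFB receptors, F-box proteins that then bring Aux/IAA repressors to degradation. This frees auxin response factors (ARFs), among them ARF7 and ARF19, which switch on LBD genes and other early targets in xylem pole pericycle cells, from which lateral roots start. Aux/IAA genes, GH3 genes for IAA conjugation and several SAUR genes are themselves early targets. After growth on NPA, transfer to auxin starts the program along most of the pericycle at once.

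The 6 libraries held 32346056 to 55099517 counts on 32833 genes, of which 21902 passed the filter on low counts and were tested. Levels are given as CPM, that is counts relative to the library total after edgeR's TMM scaling. Changes are log2 fold changes with their standard error, 3 libraries a group, and a gene is said to rise or fall where edgeR's quasi-likelihood test gave an adjusted p under 0.05. By this rule 3455 genes rose (15.8% of those tested) and 2886 fell (13.2%), together 29.0%. Of these, 1501 rose and 1008 fell at least 2-fold, and 140 rose and 9 fell at least 16-fold. The median log2 fold change of all tested genes was -0.00. In 8678 genes no CPM value of one time lay within the range of the other, 39.6% of those tested. The first principal component held 73% of the variance among the 6 libraries and separated 0 h from 1 h. Among 0 h libraries the correlation of log2 CPM was 0.986 to 0.991, among 1 h libraries 0.986 to 0.993, and between the times 0.942 to 0.966.

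The times came from different sequencing runs, a fact known only from file names. The run of the 1 h libraries also held the 1 h libraries of shy2-2 under DEX and both the 0 h and 1 h libraries of slr-1 under DEX, while 2, 4 and 6 h of shy2-2 in DMSO shared the run of 0 h. Run and time therefore cannot be told apart inside the comparison. In slr-1 in DMSO 0 h and 1 h also came from different runs, so run and time cannot be told apart there either. Values at 2 h and in slr-1 are given for some of the named genes. The line labels were checked on genes whose CPM separated the 24 shy2-2 libraries of the other times from the 30 slr-1 libraries, a set of 7 chosen after their values were seen. In 5 of them all 6 shy2-2 libraries of 1 h, DMSO and DEX, were nearer the mean of the other shy2-2 libraries. AT3G09180 had 22, 25.7 and 23.5 CPM in the 3 DMSO libraries of 1 h, against 23.3 to 30.1 CPM in the other shy2-2 libraries and 3.15 to 5.16 CPM in slr-1. HTB2 (AT5G22880) had 69.4, 52.2 and 59.5 CPM, against 20.8 to 69.5 CPM in the other shy2-2 libraries and 144 to 210 CPM in slr-1. AT1G14640 had 2.9, 2.55 and 2.61 CPM, against 0.808 to 3.2 CPM and 5.19 to 10.6 CPM. In all 5 genes replicates 1 and 3 of 1 h in DMSO lay nearer the slr-1 mean than replicate 2 did. In the remaining 2, AT1G21313 and AT4G04335, all 6 libraries of 1 h were nearer the slr-1 mean. AT4G04335 had 0.0384, 0.0952 and 0.0607 CPM in the DMSO libraries of 1 h, at most 0.174 CPM in slr-1 and at least 0.493 CPM in the other shy2-2 libraries.

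Low levels of slr-1 markers were present in a few shy2-2 libraries, replicates 1 and 3 of the 1 h group among them. IQD33 (AT5G35670), at a mean of 11 CPM in slr-1, had 0.441 and 0.577 CPM there and 0.0238 CPM in replicate 2, and its mean over the other shy2-2 libraries was 0.0761 CPM. IQD33 stood at levels of the same size in replicate 3 of 0 h under DEX (0.517 CPM) and replicate 2 of 2 h under DEX (0.403 CPM). For this marker, such levels were not particular to the 1 h group. AT5G33390, at a mean of 3.89 CPM in slr-1, had 0.307 and 0.334 CPM in replicates 1 and 3 and 0.0476 CPM in replicate 2, and its next highest value in shy2-2 was 0.25 CPM, in replicate 1 of 6 h in DMSO. In the 2 DEX libraries with raised IQD33, AT5G33390 had 0.0861 and 0.0848 CPM. Counts of called genes without each library are given with the alternatives. The part of these levels in other results was not tested.

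The largest rises were in genes at or near 0 before auxin. PUCHI (AT5G18560), which encodes an AP2-type factor that shapes the early primordium, had 0, 0 and 0 CPM at 0 h and 10.9, 13.8 and 8.44 CPM at 1 h. With a floor of 3 counts over the 3 libraries of 0 h, where none was seen, it stood at least 589-fold higher at 1 h. Its level went on to 16.2 CPM at 2 h and 67.4 CPM at 6 h. By the same rule 2 further genes had no counts at 0 h and at least 1 CPM in every library of 1 h, AT4G11340 at a mean of 4.28 CPM (at least 223-fold) and AT4G37290 at 7.09 CPM (at least 388-fold). These 2 were chosen after their values were seen. No gene went the other way.

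The next ranks were held by GAD4 (AT2G02010), which encodes a glutamate decarboxylase that makes GABA, and by Aux/IAA genes. GAD4 had 0.0591, 0.214 and 0.0198 CPM at 0 h and 55.1, 53.3 and 37.02 CPM at 1 h, a log2 fold change of 8.86 ± 0.57 (adjusted p = 3.87e-11). IAA5 (AT1G15580) had 0.0197, 0.231 and 0.0396 CPM at 0 h and 62.8, 41.4 and 34.9 CPM at 1 h, a log2 fold change of 8.80 ± 0.58. IAA6 (AT1G52830) had 0, 0.125 and 0.0396 CPM at 0 h and 20.97, 15.04 and 12.1 CPM at 1 h, a log2 fold change of 8.07 ± 0.52. The rule for these ranks admits only genes whose groups do not overlap, as in 39.6% of all tested genes. In these 3 genes most of the few counts at 0 h came from replicate 2. AT1G30190, AT4G37295, AT4G11170 and AT5G60350 rose by 8.64 ± 0.55, 8.45 ± 0.38, 6.52 ± 0.38 and 5.98 ± 0.36. AT4G11170 is annotated as a disease resistance protein of the TIR-NBS-LRR class. ZFP2 (AT5G57520), which encodes a zinc finger protein, had 0.808, 1.37 and 0.633 CPM at 0 h and 63.96, 64.3 and 58.1 CPM at 1 h, and MYB108 (AT3G06490), a MYB factor gene, rose by 5.51 ± 0.32. NIA1 (AT1G77760), which encodes a nitrate reductase, had 4.396, 5.66 and 3.03 CPM at 0 h and 326, 275 and 201 CPM at 1 h, a log2 fold change of 5.94 ± 0.48, and stood at 393 CPM at 2 h in the run of 0 h.

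The smallest p-values among rises belonged both to genes already well expressed at 0 h and to genes near 0 there. ARF19 (AT1G19220), the ARF that acts with ARF7 in lateral root initiation, had 48.5, 51.8 and 45.7 CPM at 0 h and 232, 252 and 239 CPM at 1 h, a log2 fold change of 2.31 ± 0.08 (adjusted p = 3.88e-15). GH3.3 (AT2G23170) and GH3.2 (AT4G37390), whose enzymes join IAA to amino acids, followed with 5.75 ± 0.22 and 5.30 ± 0.21. AT3G47480, annotated as a calcium-binding EF-hand protein, rose by 6.18 ± 0.24 from a mean of 0.103 CPM to 7.61 CPM.

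**Figure D1:**
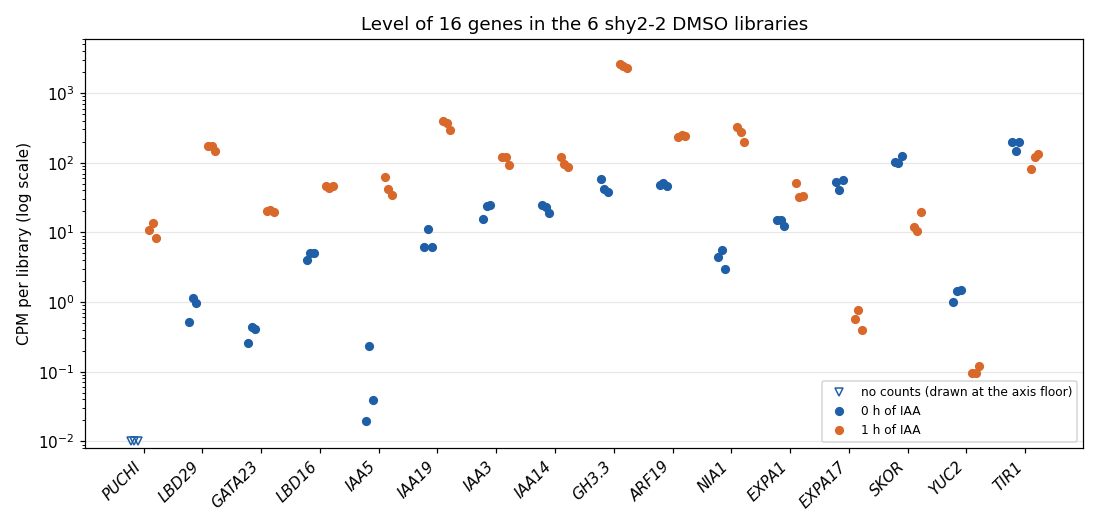
Level of 16 genes in each of the 6 libraries, in CPM on a log axis, with 0 h in blue and 1 h in orange and open triangles at the axis floor for libraries without a count. The groups do not overlap in any of the 16, nor in 39.6% of all tested genes. For genes ranked by size of change this was a condition of naming. PUCHI goes from 0 to between 8.44 and 13.8 CPM while EXPA17 goes from between 41.0 and 56.2 CPM to under 1.

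Sequence next to the genes that rose most was read to show where auxin response element letters, the sites ARFs bind, lie beside these genes. The 300 bases before each annotated gene start were taken from the RefSeq assembly TAIR10.1 and searched on both strands for TGTCTC and TGTCGG, counting every match by itself. At least 1 of these words was found before 6 of the 15 genes with the largest rises, before 1 of the 15 with the largest falls and before 17.7% of all 21805 tested genes with 300 bases to read. Among genes called up at least 2-fold the share was 20.6%, and among genes called down at least 2-fold 16.4%. Below are the windows of 5 of the 6 genes, 5′ to 3′ on the gene's strand and ending at the base before the gene start, with matches on either strand in capitals.
PUCHI (chr5:6166041-6166340, minus strand): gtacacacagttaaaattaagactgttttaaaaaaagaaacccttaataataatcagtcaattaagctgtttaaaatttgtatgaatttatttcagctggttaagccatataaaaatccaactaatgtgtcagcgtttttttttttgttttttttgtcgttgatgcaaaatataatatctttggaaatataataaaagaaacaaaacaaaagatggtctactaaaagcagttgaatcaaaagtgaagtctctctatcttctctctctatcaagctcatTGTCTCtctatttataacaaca
IAA5 (chr1:5366498-5366797, minus strand): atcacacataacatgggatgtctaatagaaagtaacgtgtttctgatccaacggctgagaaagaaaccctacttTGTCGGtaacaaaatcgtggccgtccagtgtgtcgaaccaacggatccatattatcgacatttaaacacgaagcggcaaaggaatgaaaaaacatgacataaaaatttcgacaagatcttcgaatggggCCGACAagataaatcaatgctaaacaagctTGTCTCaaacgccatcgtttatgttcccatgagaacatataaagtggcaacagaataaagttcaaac
GATA23 (chr5:9479124-9479423, plus strand): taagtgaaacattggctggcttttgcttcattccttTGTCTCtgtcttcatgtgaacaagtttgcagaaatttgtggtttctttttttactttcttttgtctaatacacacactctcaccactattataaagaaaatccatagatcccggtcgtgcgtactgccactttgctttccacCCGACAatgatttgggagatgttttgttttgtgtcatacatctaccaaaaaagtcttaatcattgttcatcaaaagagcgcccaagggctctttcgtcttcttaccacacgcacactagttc
GH3.3 (chr2:9866563-9866862, minus strand): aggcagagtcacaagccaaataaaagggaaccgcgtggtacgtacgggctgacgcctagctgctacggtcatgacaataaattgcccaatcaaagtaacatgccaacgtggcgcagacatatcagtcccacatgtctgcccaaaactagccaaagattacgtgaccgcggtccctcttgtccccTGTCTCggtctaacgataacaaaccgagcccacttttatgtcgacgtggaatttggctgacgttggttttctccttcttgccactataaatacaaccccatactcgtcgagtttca
IAA19 (chr3:5263701-5264000, plus strand): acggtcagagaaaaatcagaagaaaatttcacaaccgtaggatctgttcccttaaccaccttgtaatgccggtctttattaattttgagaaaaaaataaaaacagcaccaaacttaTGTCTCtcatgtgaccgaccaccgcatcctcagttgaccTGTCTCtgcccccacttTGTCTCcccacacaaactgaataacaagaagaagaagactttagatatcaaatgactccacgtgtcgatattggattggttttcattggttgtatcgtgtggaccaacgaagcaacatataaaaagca
IAA19 holds TGTCTC at 3 places, at -184, -145 and -128 from the gene start, all on the gene's strand. IAA5 holds TGTCGG at -226 and, on the other strand, at -97, and TGTCTC at -67. GATA23 holds TGTCTC at -264 and TGTCGG at -122 on the other strand, GH3.3 holds TGTCTC at -116 and PUCHI at -22. LBD29, LBD16, NIA1 and GAD4 hold neither word in this window. A match is a run of letters and not a measured binding site.

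Among genes that act in lateral root initiation 14 of 24 tested members rose and none fell, against 15.8% of all tested genes that rose. The median log2 fold change of the 24 was 0.76. LBD29 (AT3G58190) and LBD16 (AT2G42430), which encode LOB-domain factors directly downstream of ARF7 and ARF19, had respectively 0.512, 1.16 and 0.97 CPM at 0 h and 176, 176 and 148 CPM at 1 h, and 4.001, 5.002 and 4.99 CPM at 0 h and 45.9, 44.03 and 45.9 CPM at 1 h. Their log2 fold changes were 7.55 ± 0.37 and 3.28 ± 0.14. GATA23 (AT5G26930), whose promoter drives the fusion, had 0.256, 0.445 and 0.416 CPM at 0 h and 19.96, 21.2 and 19.7 CPM at 1 h, a log2 fold change of 5.75 ± 0.31 (adjusted p = 1.29e-12), and stood at 9.99 CPM at 2 h. All 3 genes were higher in every library of 1 h than in any library of 0 h, and 39.6% of all tested genes had groups without overlap. For LBD29 and GATA23 this was a condition of the ranks they hold. LBD18 (AT2G45420), which acts in primordium emergence, rose by 4.05 ± 0.35 and MAKR4 (AT2G39370), a membrane-associated regulator of lateral root spacing, by 3.70 ± 0.19 to 192 CPM. CRF3 (AT5G53290), a cytokinin response factor gene, rose by 3.11 ± 0.16. Of the well expressed members ARF7 (AT5G20730) had 0.21 ± 0.08 (adjusted p = 0.0603) and PLT3 (AT5G10510), a PLETHORA gene of later primordium patterning, -0.34 ± 0.16 (adjusted p = 0.118), neither past the threshold. PLT3 passed without replicate 3 of 0 h (-0.48, adjusted p = 0.0377 in edgeR) or replicate 3 of 1 h (-0.47, adjusted p = 0.0488 in edgeR).

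LOB-domain genes as a family were measured in 25 of 41 members, with 10 rises, 1 fall and a median of 0.52. Among all tested genes 15.8% rose and 13.2% fell. LBD19 (AT2G45410) had 1 count over the libraries of 0 h and 407 at 1 h, a ratio of pooled counts of 504 with an exact binomial 95% interval of 90 to 2e+04 that covers counting error only. LBD33 (AT5G06080) and LBD17 (AT2G42440) rose by 5.32 ± 0.46 and 3.75 ± 0.25. LBD37 (AT5G67420) and LBD39 (AT4G37540), repressors of nitrate response genes, rose less, by 0.88 ± 0.12 and 1.00 ± 0.17, from levels of 153 and 45.6 CPM.

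Homeobox and other factor families held few tested members each, beside 15.8% of all tested genes that rose and 13.2% that fell. Class II HD-ZIP genes, known for shade and auxin responses, rose in 5 of 9 and fell in none, led by HAT17 (AT2G01430) at 2.97 ± 0.23 and HAT2 (AT5G47370) at 1.46 ± 0.21. WOX genes rose in 5 of the 8 tested of 15, with WOX11 (AT3G03660), known for founder cells of adventitious roots, going from 3.25 to 29.4 CPM (3.18 ± 0.18). Class III HD-ZIP genes gave 1 rise and 1 fall of 5, all within 0.28 log2 units of 0. SHI-related genes rose in 3 of the 7 tested of 10, among them LRP1 (AT5G12330), named for its expression in lateral root primordia, by 1.23 ± 0.25. Vascular factors linked to the ARF MONOPTEROS rose in 6 of 10 and fell in 1, with TMO5 (AT3G25710), which acts in periclinal divisions, at 0.95 ± 0.13. Without replicate 1 of 0 h or replicate 1 of 1 h 3 WOX genes rose, and no class III HD-ZIP gene passed without any one library of 1 h.

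**Figure D2:**
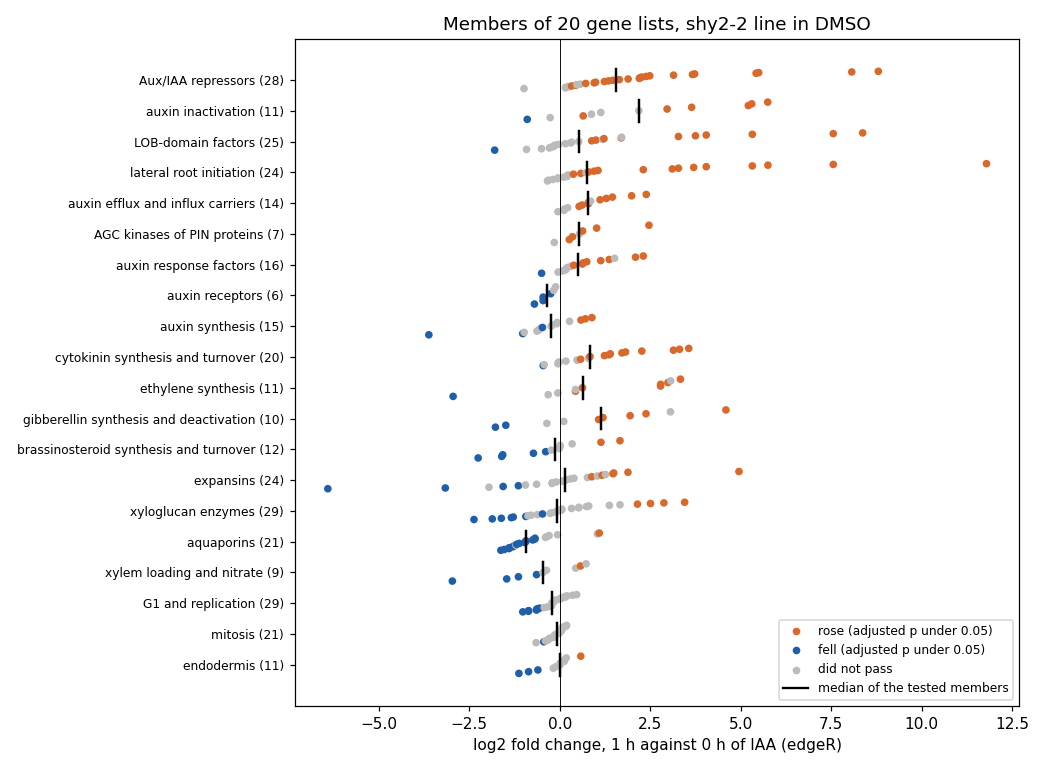
Log2 fold change of every tested member of 20 gene lists, 1 point a gene, with the number tested after each list name, colours for rise, fall or neither, and a black bar for the median. Medians run from 2.18 in auxin inactivation to -0.94 in aquaporins, and 0 lies inside the range of most lists.

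Aux/IAA repressor genes rose in 22 of 28 tested members and fell in none, against 15.8% of all tested genes that rose. Their median log2 fold change was 1.55. IAA19 (AT3G15540) had 6.21, 11.2 and 6.25 CPM at 0 h and 403, 372 and 293 CPM at 1 h, a log2 fold change of 5.49 ± 0.40, and IAA29 (AT4G32280) rose by 5.42 ± 0.38 to 79.1 CPM. IAA11 (AT4G28640), IAA30 (AT3G62100) and IAA1 (AT4G14560) rose by 3.73 ± 0.18, 3.67 ± 0.23 and 3.14 ± 0.14. IAA13 (AT2G33310) and IAA2 (AT3G23030), already at 58.6 and 125 CPM, reached 328 and 602 CPM. IAA16 (AT3G04730), the highest of the members that did not pass, stood at 359.6 and 402 CPM (adjusted p = 0.269), and IAA17 (AT1G04250) at 161 and 190.2 CPM (adjusted p = 0.262).

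Counts of both repressor genes used in the fusions rose. In shy2-2 the reads of IAA3 (AT1G04240) include those of the shy2-2-GR fusion, so a change of the native gene was not measured apart from it. IAA3 had 15.4, 23.8 and 24.8 CPM at 0 h and 121, 120.1 and 92.7 CPM at 1 h, a log2 fold change of 2.38 ± 0.26. In slr-1 in DMSO the log2 fold change of IAA3 was 2.21 ± 0.22, from 12.4 to 58.4 CPM, and the difference between the lines was 0.18 ± 0.34 (adjusted p = 1). IAA14 (AT4G14550) had 24.4, 23.5 and 18.8 CPM at 0 h and 120.3, 97.4 and 88.02 CPM at 1 h, a log2 fold change of 2.2 ± 0.18. Its level in slr-1, where reads of the other fusion count to it, was 31.3 CPM at 0 h and 157 CPM at 1 h. By group mean, each gene was higher at both times in the line whose fusion adds to it.

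Of the other parts of auxin perception, ARF genes rose in 8 of the 16 tested of 22 and fell in 1. Among all tested genes 15.8% rose and 13.2% fell. After ARF19, ARF4 (AT5G60450) and ARF16 (AT4G30080), both of repressing classes, rose by 2.09 ± 0.13 and 1.37 ± 0.12. The receptor genes moved the other way, with 4 falls and no rise among 6. TIR1 (AT3G62980) had 201, 147 and 199 CPM at 0 h and 81.9, 121 and 134 CPM at 1 h, a log2 fold change of -0.70 ± 0.20 (adjusted p = 0.0105), and AFB1 (AT4G03190), AFB4 (AT4G24390) and AFB3 (AT1G12820) fell by 0.46 ± 0.10, 0.46 ± 0.07 and 0.25 ± 0.07. AFB2 (AT3G26810) and AFB5 (AT5G49980) had -0.11 ± 0.08 and -0.17 ± 0.08, with neither past the threshold. TIR1 did not pass without replicate 1 of 1 h (-0.54, adjusted p = 0.0659), nor did AFB3 in a fit of the 6 libraries alone (adjusted p = 0.12).

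Auxin inactivation genes rose in 6 of the 11 tested of 13 and fell in 1, beside 15.8% of all tested genes that rose and 13.2% that fell. Their median was 2.18. GH3.3 had 57.97, 42.4 and 38.2 CPM at 0 h and 2637, 2479 and 2316 CPM at 1 h. GH3.2 had 54.2, 54.01 and 48.4 CPM at 0 h and 2079.7, 2014 and 2086 CPM at 1 h. Both were among the most abundant genes named here at 1 h. GH3.1 (AT2G14960), GH3.5 (AT4G27260) and GH3.6 (AT5G54510) rose by 5.21 ± 0.41, 3.64 ± 0.17 and 2.96 ± 0.19, and DAO1 (AT1G14130), whose enzyme oxidises IAA, by 0.65 ± 0.16. GH3.17 (AT1G28130), which conjugates IAA to glutamate, fell by 0.90 ± 0.27. DAO1 did not pass without replicate 1 of 1 h (0.47, adjusted p = 0.0505). GH3.17 did not pass without replicate 2 of 0 h, replicate 2 of 1 h or replicate 3 of 1 h (adjusted p = 0.067, adjusted p = 0.0684 and adjusted p = 0.0632).

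Auxin synthesis genes gave 3 rises and 3 falls among the 15 tested of 20, beside 15.8% of all tested genes that rose and 13.2% that fell. YUC2 (AT4G13260), one of the flavin monooxygenases of the last step, had 0.986, 1.42 and 1.48 CPM at 0 h and 0.0959, 0.0952 and 0.121 CPM at 1 h, a log2 fold change of -3.62 ± 0.39. YUC6 (AT5G25620) and YUC8 (AT4G28720) fell by 1.02 ± 0.23 and 0.48 ± 0.17, while TAA1 (AT1G70560), the aminotransferase of the step before, rose by 0.89 ± 0.19 and YUC3 (AT1G04610) and YUC9 (AT1G04180) by 0.58 ± 0.10 and 0.71 ± 0.26. The call of YUC9 was lost without any library but replicate 2 of 0 h (adjusted p up to 0.209), and that of YUC8 without replicate 3 of 0 h or replicate 1 or 2 of 1 h (adjusted p up to 0.148).

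Carriers of auxin rose in 9 of the 14 tested of 16 and fell in none. Among all tested genes 15.8% rose and 13.2% fell. PIN7 (AT1G23080) and PIN3 (AT1G70940), efflux carriers of the stele and root cap, went from 45.2 to 237 CPM and from 61.5 to 243 CPM, log2 fold changes of 2.39 ± 0.24 and 1.98 ± 0.12. PIN4 (AT2G01420) rose by 1.45 ± 0.09. PIN2 (AT5G57090), the carrier of epidermis and cortex, stood at 261 and 252 CPM (adjusted p = 0.832). AUX1 (AT2G38120) and LAX3 (AT1G77690), influx carriers that act in initiation and in the tissue over a primordium, rose by 1.11 ± 0.12 and 0.79 ± 0.18. Kinases that act on PIN proteins rose in 5 of 7, with PID (AT2G34650) at 2.46 ± 0.14 and D6PKL3 (AT3G27580) at 1.02 ± 0.11. PILS carriers of the endoplasmic reticulum gave 1 rise and 1 fall of the 5 tested. Without replicate 3 of 0 h 3 of these kinase genes rose.

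SAUR genes, many of which promote cell expansion, gave 19 rises and 10 falls among the 57 tested of 78. Among all tested genes 15.8% rose and 13.2% fell. SAUR24 (AT5G18080) and SAUR35 (AT4G12410) rose by 5.47 ± 0.37 and 4.86 ± 0.28, and SAUR72 (AT3G12830) and SAUR5 (AT4G34810) fell by 2.76 ± 0.29 and 2.32 ± 0.26. Neighbouring SAUR genes are close copies, and levels of single members are uncertain where reads could fit more than 1.

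Genes of the other hormones gave calls in parts of each pathway, beside 29.0% of all tested genes called. Cytokinin synthesis and turnover genes gave 11 rises and 1 fall among the 20 tested of 24. Cytokinin oxidase genes CKX6 (AT3G63440), CKX3 (AT5G56970) and CKX7 (AT5G21482), whose enzymes degrade the hormone, rose by 3.31 ± 0.26, 3.14 ± 0.27 and 3.56 ± 0.51, and the synthesis genes LOG3 (AT2G37210) and IPT7 (AT3G23630) by 1.36 ± 0.19 and 1.23 ± 0.26. Type-A response regulators, a readout of cytokinin response, gave 2 rises and 1 fall among 10, a share near that of all genes, with ARR7 (AT1G19050) at 2.49 ± 0.28 and ARR5 (AT3G48100) at 28.2 and 27.9 CPM (adjusted p = 0.976). In a fit of the 6 libraries alone 1 type-A gene rose and none fell.

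Ethylene synthesis genes gave 6 rises and 1 fall among 11, beside 15.8% of all tested genes that rose and 13.2% that fell. The ACC synthase genes ACS9 (AT3G49700), ACS11 (AT4G08040) and ACS6 (AT4G11280) rose by 3.33 ± 0.50, 2.99 ± 0.29 and 2.78 ± 0.38, while ACS5 (AT5G65800) fell by 2.95 ± 0.48. Of 12 genes of ethylene perception and signalling 3 rose, EBF1 (AT2G25490) by 0.84 ± 0.13, ERS2 (AT1G04310) by 0.81 ± 0.18 and ETR2 (AT3G23150) by 0.61 ± 0.22. The call of ETR2 was lost without any library but replicate 3 of 1 h (adjusted p up to 0.15).

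In gibberellin metabolism 5 of 10 tested genes rose and 2 fell, beside 15.8% of all tested genes that rose and 13.2% that fell. The deactivating oxidase genes GA2OX8 (AT4G21200) and GA2OX6 (AT1G02400) rose by 4.59 ± 0.31 and 2.38 ± 0.18. GA3OX1 (AT1G15550) and GA20OX2 (AT5G51810), which act in gibberellin synthesis, fell by 1.78 ± 0.18 and 1.49 ± 0.20. GA3OX2 (AT1G80340), also a synthesis gene, rose by 1.19 ± 0.18. Brassinosteroid genes gave 2 rises and 5 falls of 12. DWF4 (AT3G50660), whose enzyme sets the rate of synthesis, went from 30.7 to 97.1 CPM (1.66 ± 0.14), while CYP90D1 (AT3G13730), ROT3 (AT4G36380) and BR6OX1 (AT5G38970), further along the pathway, fell by 2.25 ± 0.21, 1.58 ± 0.21 and 1.6 ± 0.26.

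The largest fall was that of EXPA17 (AT4G01630), an expansin gene known to act in lateral root emergence. It had 52.8, 41.01 and 56.2 CPM at 0 h and 0.576, 0.762 and 0.395 CPM at 1 h, a log2 fold change of -6.41 ± 0.43 (adjusted p = 7.64e-11). In the run of 0 h it stood at 12.9 CPM at 2 h, 52.8 CPM at 4 h and 116 CPM at 6 h. In slr-1 under DEX, where 0 h and 1 h shared a run, its log2 fold change was -6.29 ± 0.47. AT1G05650, annotated as a pectin lyase-like protein, had 14.9, 16.1 and 17.56 CPM at 0 h and 0.269, 0.214 and 0.243 CPM at 1 h, a log2 fold change of -6.04 ± 0.49, and stood at 0.0308 CPM at 2 h.

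The other large falls were AT5G17960, a C1 domain protein gene, by 4.22 ± 0.46, AT2G44130 by 3.66 ± 0.39, AT2G41810 by 3.63 ± 0.50, CHX17 (AT4G23700), a cation/H+ exchanger gene, by 3.49 ± 0.24, and MYB27 (AT3G53200) by 3.46 ± 0.56. AT1G33055, AT5G65207, AT2G43890, AT3G14260, AT3G23880 and AT4G32480 fell by between 3.05 ± 0.52 and 3.49 ± 0.69. AT1G21313, also in these ranks, is treated with the line comparison. The falls with the smallest p-values were those of TRP1 (AT5G59430), a telomere repeat-binding protein gene, with 53.5, 61.5 and 60.1 CPM at 0 h and 11.6, 12.02 and 14.3 CPM at 1 h, and of BXL2 (AT1G02640), a beta-xylosidase gene, with 101, 115 and 140.3 CPM at 0 h and 19.7, 21.7 and 18.9 CPM at 1 h. AT1G75140, CYCP4;1 (AT2G44740), a P-type cyclin gene, and AT5G57770 fell by 1.40 ± 0.09, 2.5 ± 0.17 and 1.52 ± 0.10. In all 5 every library of 1 h was below every library of 0 h, but the 5 were picked by their p-values. The groups did not overlap in 39.6% of all tested genes.

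Cell wall families held both directions, beside 15.8% of all tested genes that rose and 13.2% that fell. Expansins gave 6 rises and 4 falls among the 24 tested of 34, with EXPA12 (AT3G15370) going from 1.04 to 32.4 CPM (4.95 ± 0.46), EXPA1 (AT1G69530) with 15.2, 15.04 and 12.4 CPM at 0 h and 52.001, 31.96 and 33.8 CPM at 1 h (1.47 ± 0.27, adjusted p = 0.000185), and EXPB1 (AT2G20750) and EXPA14 (AT5G56320) falling by 3.16 ± 0.55 and 1.56 ± 0.26. Xyloglucan enzymes gave 4 rises and 7 falls among 29. XTH18 (AT4G30280), XTH19 (AT4G30290) and XTH20 (AT5G48070), close copies of each other, rose by 3.45 ± 0.31, 2.88 ± 0.39 and 2.51 ± 0.48, and XTH18 stood at 24.8 CPM at 0 h, 271 CPM at 1 h and 128 CPM at 2 h. XTH15 (AT4G14130) and XTH30 (AT1G32170) fell from 114 to 31.4 CPM and from 159.6 to 52.1 CPM. Of 7 tested genes of cell separation over a primordium 2 rose, LAX3 and HAE (AT4G28490), the receptor kinase of the IDA peptide, the latter by 1.26 ± 0.25.

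**Figure D3:**
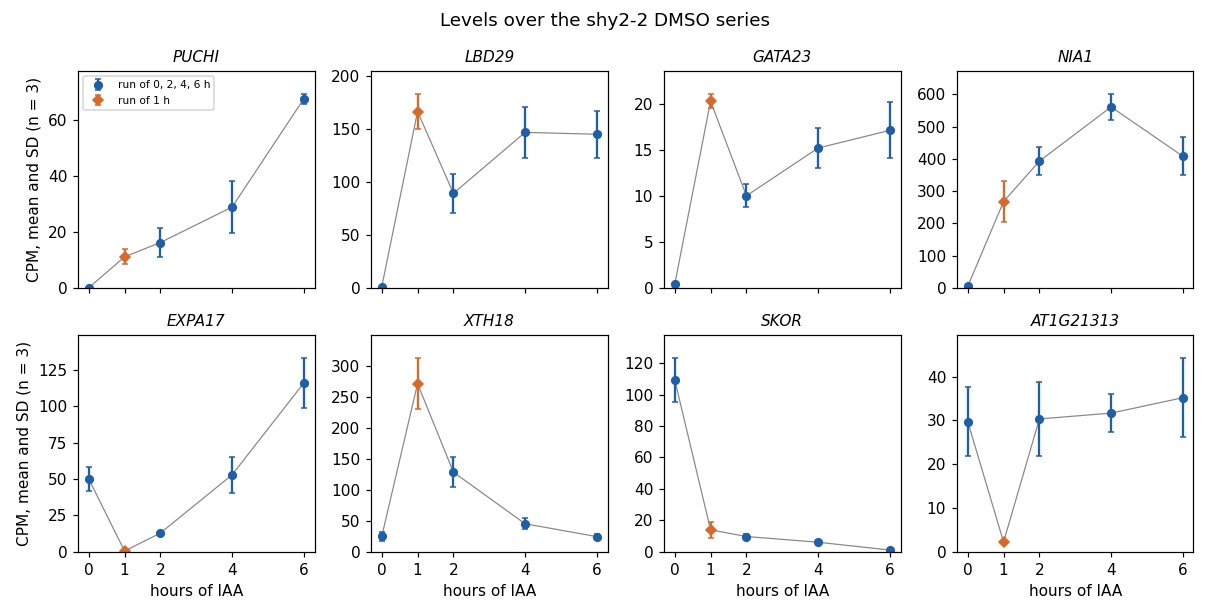
Mean CPM and SD (3 libraries a time) of 8 genes over 0, 1, 2, 4 and 6 h of IAA in shy2-2 in DMSO, with the 1 h group, from another sequencing run, drawn as an orange diamond. PUCHI, NIA1 and SKOR go on in the direction of the first hour at 2 h. LBD29, GATA23, EXPA17 and XTH18 turn back in part, and AT1G21313 is low at 1 h alone.

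Water and ion transport genes held more falls than rises. Aquaporins fell in 14 of the 21 tested of 22 and rose in 1, against 13.2% of all tested genes that fell, with a median log2 fold change of -0.94. The abundant plasma membrane members PIP1;2 (AT2G45960) and PIP2;2 (AT2G37170) had 1612, 1698 and 1912 CPM at 0 h and 877, 969 and 891 CPM at 1 h, and 804, 1053 and 1154 CPM at 0 h and 415, 406 and 395 CPM at 1 h. These falls were 0.93 ± 0.19 and 1.31 ± 0.24, with no overlap of the groups in either, as in 39.6% of all tested genes. TIP2;3 (AT5G47450), a vacuolar member, and PIP2;4 (AT5G60660) fell by 1.63 ± 0.22 and 1.40 ± 0.20. NIP5;1 (AT4G10380), the boric acid channel, was the member that rose, by 1.09 ± 0.13. PIP2;2 and its tandem copy PIP2;3 (AT2G37180), with a fall of 1.26 ± 0.25, are near-identical, so their separate levels are uncertain. Of the genes of xylem loading and nitrate transport 4 of 9 tested fell and 1 rose. SKOR (AT3G02850), the potassium channel that loads the xylem from the pericycle and stelar parenchyma, had 102, 100.4 and 125 CPM at 0 h and 11.8, 10.6 and 19.7 CPM at 1 h, a log2 fold change of -2.97 ± 0.20. The zinc pumps HMA4 (AT2G19110) and HMA2 (AT4G30110) fell by 1.14 ± 0.14 and 1.47 ± 0.29 and the phosphate exporter PHO1 (AT3G23430) by 0.64 ± 0.16. In a fit of the 6 libraries alone 3 of the 9 fell and none rose, and PHO1 did not pass (adjusted p = 0.0579).

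Cell cycle genes gave no rises, beside 15.8% of all tested genes that rose. None of 29 genes of G1 and replication rose and 7 fell, beside 13.2% of all tested genes that fell, among them the CDK inhibitor genes KRP2 (AT3G50630) and KRP4 (AT2G32710) by 0.86 ± 0.18 and 0.86 ± 0.21 and CYCD1;1 (AT1G70210), a D-type cyclin gene, by 1.02 ± 0.24. Of 21 mitotic genes 1 fell, CYCA2;4 (AT1G80370), by 0.44 ± 0.15, and none rose. That share of falls was below the 13.2% of all tested genes. The highest and lowest log2 fold changes among the 21 were 0.19 and -0.65. Without replicate 2 of 0 h, replicate 1 of 1 h or replicate 3 of 1 h 4 genes of G1 and replication fell. The mitotic count was 0 without replicate 1 of 0 h, replicate 1 of 1 h or replicate 3 of 1 h, 3 without replicate 3 of 0 h and 2 without replicate 2 of 1 h, and CYCA2;4 did not pass without replicate 1 or 2 of 0 h or replicate 1 or 3 of 1 h (adjusted p up to 0.208).

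Markers of root tissues were present in every library, and their counts stand beside 29.0% of all tested genes called. Of 10 general root markers 3 rose and 2 fell. None of the 10 was at 0, and their summed level was 2945, 5535 and 5363 CPM at 0 h and 7233, 5643 and 4076 CPM at 1 h, so the groups overlapped. Endodermal genes gave 1 rise and 3 falls of 11 and summed to 582 to 688 CPM at 0 h and 543 to 614 CPM at 1 h. Here SCR (AT3G54220) rose by 0.58 ± 0.09, and SGN1 (AT1G61590), a kinase gene of Casparian strip sensing, and MYB36 (AT5G57620) fell by 1.13 ± 0.19 and 0.60 ± 0.18. Suberin genes summed to 81.5, 162 and 179 CPM at 0 h and 412, 255 and 186 CPM at 1 h. Every library of 1 h was above every library of 0 h, and 39.6% of all tested genes had groups without overlap. Of the 12 suberin genes 1 passed upward, ASFT (AT5G41040) by 1.96 ± 0.46, and 1 downward. Xylem genes gave no rise and 2 falls of 9, of which VND6 (AT5G62380), a vessel identity factor gene, fell by 2.75 ± 0.68. Phloem genes gave 1 rise and 1 fall of 5, root hair genes 3 rises and 1 fall of 11 and root cap genes 2 rises and 1 fall of 4. In whole root segments, fewer cells of a type and less RNA per cell cannot be told apart. None of 13 photosynthesis and shoot genes passed, and their summed level, 378 to 436 CPM at 0 h and 239, 516 and 640 CPM at 1 h, overlapped between the groups. No root hair gene passed without replicate 1 of 0 h, replicate 1 of 1 h or replicate 2 of 1 h, and 1 did without replicate 3 of 0 h. Without replicate 1 of 1 h 1 xylem and 1 root cap gene passed, and MYB36 did not (-0.52, adjusted p = 0.0539), and without replicate 3 of 0 h 1 phloem gene did.

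The same hour was measured in slr-1 with libraries of its own. In DMSO its 0 h and 1 h libraries came from different runs, as in shy2-2. In DMSO 5941 genes were called there (27.2% of 21864 tested) and under DEX 5281 (24.2%). Of 6259 genes called in shy2-2 and tested in slr-1, 99.0% had the same sign in slr-1 in DMSO, and 73.3% were called there in the same direction and 2 genes in the opposite one. In slr-1 under DEX, where both times lay in 1 run, 97.6% had the same sign, 62.2% were called in the same direction and 4 genes in the opposite one. LBD29 had log2 fold changes of 7.81 ± 0.24 in slr-1 in DMSO and 7.17 ± 0.23 under DEX, SKOR -3.06 ± 0.21 and -0.89 ± 0.19, and NIA1 4.72 ± 0.36 and 3.62 ± 0.33.

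**Figure D4:**
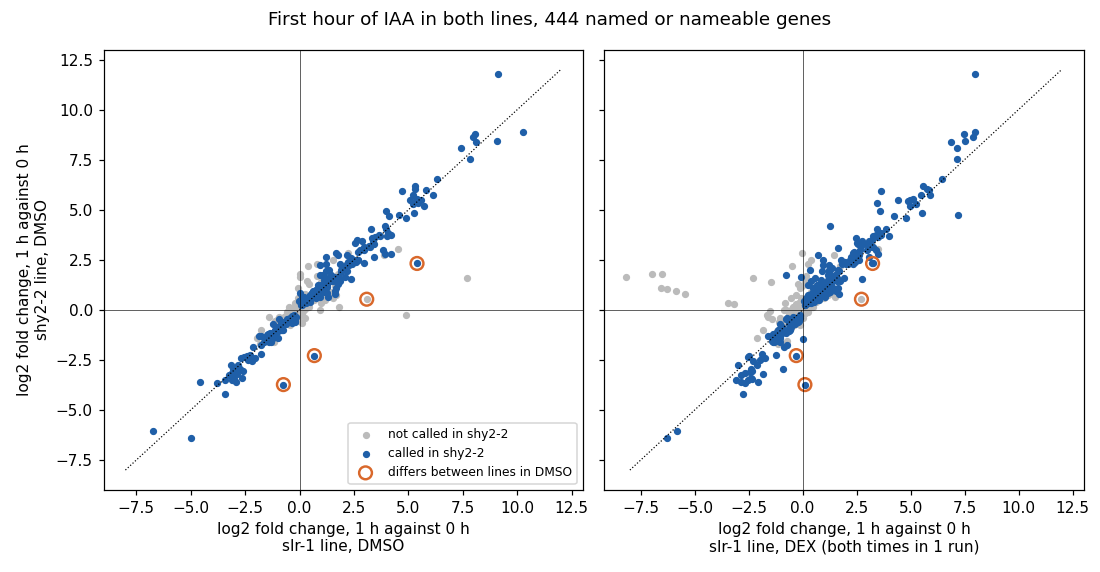
Log2 fold change of the first hour in shy2-2 in DMSO (vertical) against slr-1 in DMSO (left) and slr-1 under DEX (right), for 444 genes that the naming rule admits, with blue for genes called in shy2-2, rings for the 4 that differ between the lines in DMSO and a dotted line of equal change. Most blue points lie near the dotted line in both panels, and the grey points far to the left under DEX are photosynthesis and shoot genes, none of which was called in shy2-2.

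The difference between the lines was tested as the shy2-2 change less the slr-1 change in DMSO. It passed the threshold in 4 of 22268 genes (0.0180%), with 673 at an unadjusted p under 0.05. None of the 4 was in a gene list used here. Each of the compared groups came from a different run, so run and line cannot be told apart in this difference. AT1G21313 had 28.03, 38.3 and 22.98 CPM at 0 h and 1.92, 2.14 and 2.703 CPM at 1 h, a log2 fold change of -3.73 ± 0.33, against -0.74 ± 0.24 in slr-1 (adjusted p = 5.57e-05 for the difference). It stood at 30.3 CPM at 2 h, and under DEX at 42.5 CPM at 0 h and 2.06 CPM at 1 h, so it was low in all 6 shy2-2 libraries of 1 h, in DMSO and under DEX, which are also those of the other run. AT2G42150, annotated as a bromodomain protein, had 0.434, 1.09 and 0.594 CPM at 0 h and 5.28, 1.24 and 4.07 CPM at 1 h, a log2 fold change of 2.32 ± 0.39, against 5.39 ± 0.18 in slr-1, where it reached 41.6 CPM. The higher values of AT2G42150 in shy2-2 at 1 h were those of replicates 1 and 3, which also held low levels of slr-1 markers. Under DEX at 1 h the shy2-2 libraries had 1.59, 1.54 and 1.67 CPM of it. The part of the marker levels in the change of AT2G42150 was not tested. AT2G09335 (chr2:17572719-17574482, TAIR10.1) lies within AT2G42150 (chr2:17572305-17574679), so these 2 of the 4 genes share a locus. AT2G09335 had 0.53 ± 0.29 (adjusted p = 0.192) in shy2-2 and 3.08 ± 0.32 in slr-1, and AT2G01020 -2.28 ± 0.47 and 0.68 ± 0.23. Without replicate 3 of slr-1 at 0 h 2 genes passed, AT2G09335 and AT2G01020 being lost (adjusted p = 0.0785 and adjusted p = 0.0796). AT2G01020 was lost too without replicate 1 of 0 h, replicate 1 of 1 h or replicate 2 of 1 h in shy2-2 (adjusted p up to 0.102). In a fit of the 12 libraries alone edgeR called none of 21323 genes, with 468 at an unadjusted p under 0.05, and DESeq2 called 5 over all 60 libraries.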

How the data were processed

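Counts per gene were used as deposited. The authors' alignment, per the submitters' processing notes, used STAR 2.5.2b and the build TAIR10. Column 4 of each file was taken, the strand with 93.6 to 96.4% of stranded counts over the 60 libraries. Rows that name no gene made up 5.98 to 7.32% in the 6 compared libraries and were left out. Of 32833 genes, 32548 were named through the RefSeq gene table of TAIR10.1.

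All 30 shy2-2 libraries were fitted at once, with 1 term for each of 10 groups, in edgeR 4.0.16 (filterByExpr, TMM, robust dispersions, quasi-likelihood test), with Benjamini-Hochberg adjusted p-values over 21902 genes. The slr-1 libraries were fitted alike, and all 60 together for line differences. Residual degrees of freedom were 20, 20 and 40. Standard errors were derived from the log2 fold change and the F value. The labels do not say that triplicates were grown separately, so p-values may reflect technical spread alone. No pair of replicates was a duplicate (chi-square over degrees of freedom of at least 22.6). Run could not be a model term, since each group lies in 1 run. The code was tested on simulated data.

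The members and the 47 gene lists (736 genes) were chosen with earlier results of these data known. Named were the 15 largest rises and 15 largest falls (adjusted p under 0.05, log2 fold change of at least 1, mean of at least 5 CPM, no overlap), the 6 smallest p each way, 9 auxin and fusion genes, up to 8 members of each list by p and up to 3 by level that did not pass, and up to 5 line differences each way. Outside it stand the line markers and AT4G11340 and AT4G37290, chosen after their values were seen.

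Alternatives were RLE factors, DESeq2 1.42.0, no filter, unstranded counts, other groups in the fit, a replicate block and each replicate left out.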

Additional observations from a re-analysis of the deposited data

Results flagged for a closer look

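In 4 genes the first-hour change in DMSO differed between the lines by a test of the difference itself, the shy2-2 log2 fold change less that of slr-1, adjusted over 22268 genes. The difference was -2.96 ± 0.40 for AT1G21313 (adjusted p = 5.57e-05), -3.08 ± 0.42 for AT2G42150 (adjusted p = 5.57e-05), -2.52 ± 0.42 for AT2G09335 (adjusted p = 0.00256) and -2.95 ± 0.52 for AT2G01020 (adjusted p = 0.00668).

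AT2G09335 lies within AT2G42150, so the 4 genes stand for 3 loci. For AT1G21313 the level in shy2-2 was 21 to 60.7 CPM in the 24 shy2-2 libraries of 0, 2, 4 and 6 h and 1.15 to 2.83 CPM in the 6 of 1 h (3 in DMSO and 3 under DEX), the same 6 that come from the other sequencing run, while slr-1 libraries held 1.16 to 5.19 CPM. For AT2G42150 the 3 libraries of 1 h in shy2-2 in DMSO held 275, 52 and 134 counts, and slr-1 in DMSO at 1 h held 1915, 1532 and 2387. Replicates 1 and 3 of that shy2-2 group were also those with low levels of slr-1 markers. AT2G01020 had 5.81, 2.67 and 3.58 CPM at 0 h and 0.71, 0.547 and 1.25 CPM at 1 h in shy2-2. Each of the 4 groups in this test came from a different run. What sets the values of these genes was not tested.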

How the results depend on the processing

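The count of 6341 called genes was 6348 with RLE size factors, 6091 without a filter, 6808 in DESeq2, 6256 with unstranded counts, 6888 with all 60 libraries and 4879 in a fit of the 6 libraries alone. A fold limit of 2 left 2509. Leaving out 1 library gave 4779 to 5849 genes, in slr-1 4734 to 5658 in DMSO and 4242 to 5080 under DEX, and 2 to 6 for the difference between the lines. Fits of the compared groups alone, which hold fewer samples, gave 3411 genes in slr-1 under DEX (5281 in all groups) and 0 for the difference between the lines (4 over all 60 libraries), where 468 genes had an unadjusted p under 0.05. Whether replicate numbers pair the samples cannot be decided from 3 libraries a group. Deviations from the group means correlated at -0.408, 0.002 and 0.203 for equal numbers. Number 2 of 0 h went best with number 1 of 1 h (0.614), so not every sample correlated best with its own number. With the replicate number as a block 6536 genes were called in shy2-2, against 6341 without it. In slr-1 the block gave 6504 in DMSO and 5635 under DEX, against 5941 and 5281 without it. For the difference between the lines 4 were called either way. Of 161 calls, those of the first hour on named genes and the 4 line differences together, 144 held in every alternative that gave a value. The other 17 kept their direction and lost the call in at least 1. All 4 line differences were among these 17, each lost in the fit of the compared groups alone. Among genes that did not pass, ARR5 ran from -0.23 to 0.27 and PIN2 from -0.194 to 0.065 as each library was left out. The causes of these moves were not tested. Genes with few counts at 0 h have the least certain fold changes, and 3 libraries a group limit what small changes could pass.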

Other observations

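Several stress and metabolism lists were measured beside the auxin genes. Detoxification genes rose in 10 of 11 and fell in none, against 15.8% of all tested genes that rose, with a median log2 fold change of 1.48. ABCG40 (AT1G15520), an ABC transporter gene, rose by 4.69 ± 0.36, the glutathione transferase gene GSTU24 (AT1G17170) went from 65.9 to 198 CPM (1.59 ± 0.18), and AOX1A (AT3G22370), the alternative oxidase of mitochondria, rose by 1.02 ± 0.09. Heat shock genes rose in 5 of the 9 tested of 10, with a median of 2.27. HSFA2 (AT2G26150), a heat shock factor gene, had 1.399, 1.39 and 2.22 CPM at 0 h and 22.9, 18.5 and 14.3 CPM at 1 h and 4.21 CPM at 2 h, and HSP101 (AT1G74310) rose by 2.82 ± 0.38. In slr-1 in DMSO these changes were 2.64 ± 0.45 and 1.68 ± 0.32, and the differences between the lines did not pass (adjusted p = 1 and adjusted p = 1 in edgeR). TCH3 (AT2G41100), a calmodulin-like touch gene, had 73.4, 38.6 and 42.1 CPM at 0 h and 641, 830.3 and 716 CPM at 1 h, and MYC2 (AT1G32640), the main factor of jasmonate response, fell by 1.08 ± 0.16. Touch, wounding and jasmonate genes together gave 4 rises and 1 fall of 14. Rapid stress factors gave 4 rises of 16 and abscisic acid response genes 3 rises of 13, with no fall in either list. In both the share called was smaller than the 29.0% of all tested genes, and the share that rose was larger than their 15.8%. The phosphatase gene ABI1 (AT4G26080) rose by 1.04 ± 0.09. In a fit of the 6 libraries alone 5 rapid stress factors rose and 2 fell.

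Of all tested genes 29.0% were called, and clock genes were near this share with 4 rises and 2 falls of 17, with PRR9 (AT2G46790) at 1.63 ± 0.22, GI (AT1G22770) at 1.25 ± 0.10 and RVE1 (AT5G17300) falling by 1.20 ± 0.28. The labels give no clock time of sampling. Iron uptake genes gave 4 rises and 1 fall of 9, with the factor genes BHLH039 (AT3G56980) and BHLH038 (AT3G56970) at 1.99 ± 0.40 and 1.98 ± 0.46. Flavonoid genes rose in 2 of 8, MYB12 (AT2G47460), the flavonol regulator, by 1.59 ± 0.23 and UGT78D2 (AT5G17050) by 1.48 ± 0.24. Glucosinolate genes rose in 2 of 16, a share below the 15.8% of all genes, CYP79F2 (AT1G16400) by 2.76 ± 1.02 and MYB51 (AT1G18570) by 0.86 ± 0.25. Signal peptide genes gave 4 rises and 2 falls of 11, with CEP5 (AT5G66815) going from 0.213 to 1.03 CPM (2.26 ± 0.65) and CLE1 (AT1G73165) falling by 2.39 ± 0.35. Without replicate 1 of either time CEP5 did not pass (adjusted p = 0.0625 for 0 h and adjusted p = 0.0779 for 1 h in edgeR) and 1 signal peptide gene rose and 2 fell. Iron uptake gave 2 rises and 1 fall without replicate 1 of 0 h, replicate 2 of 0 h or replicate 3 of 1 h. The call of CYP79F2 was lost without any library but replicate 2 of 0 h and replicate 3 of 1 h (adjusted p up to 0.204), leaving 1 glucosinolate gene, and that of MYB51 without replicate 2 of 0 h (adjusted p = 0.0695).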
